A study of Drosophila melanogaster with 7 samples.

Results

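Glutathione S-transferases (GSTs) and UDP-glycosyltransferases (UGTs) are the conjugating enzymes of detoxification. They were examined in whole first-instar larvae of *Drosophila melanogaster*, as the probe sets whose gene symbol or synonym starts with GstD, GstE, GstO, GstS, GstT, GstZ or Ugt. This gave 68 of the 10844 genes that had a probe set naming 1 gene, with 72 probe sets. Where a gene had several, the one with the highest average signal was used. Of the 68 genes 34 encode GSTs, 33 encode UGTs and 1, *Uggt*, was included through its synonym Ugt. *Uggt* encodes a glucosyltransferase of the endoplasmic reticulum that marks unfolded glycoproteins and belongs to neither family. *GstT1*, *Ugt50B3* and *Ugt35D1*, the other genes of the annotation that fit the symbol rule, were not analysed here.

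GSTs join the tripeptide glutathione to reactive or foreign molecules, or use glutathione to reduce or isomerise them. The delta and epsilon classes are insect-specific, lie in tandem gene clusters and include the insect enzymes best known for insecticide resistance. UGTs transfer a sugar from a UDP-sugar to small lipophilic molecules such as plant toxins, hormones and pigments, and most are anchored in the membrane of the endoplasmic reticulum. In insects both families are prominent in the midgut, the Malpighian tubules and the fat body, where they follow cytochromes P450 and precede export by transporters.

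The study compared larvae mutant for *pof*, which encodes an RNA-binding protein of chromosome 4, with wild-type larvae. There were 4 mutant and 3 wild-type Affymetrix arrays, each hybridised with polyA RNA from its own pool of 400 larvae of mixed sex and mixed tissue. Neither the mutant allele nor the genetic background of the stocks is stated in the labels, so a difference between the stocks other than *pof* cannot be told apart from the mutation. In whole larvae, fewer cells of a type and less RNA per cell cannot be told apart either.

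Values are log2 expression by RMA, in which a difference of 1 is a 2-fold change. Differences are pof mutant minus wild type with the moderated standard error (SE) of limma. P-values come from limma over all probe sets, with Benjamini-Hochberg adjustment and a threshold of adjusted p under 0.05. Levels of different probe sets are not comparable, so no gene is ranked above another by level. Precision is limited by there being only 7 arrays. Members of a cluster are similar in sequence, and signal from a neighbour in a probe set could not be separated.

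The probe set of *Pof* itself lay near the floor of the array, at 3.43, 3.43, 3.50 and 3.41 on mutant replicates 1 to 4 and 3.90, 3.77 and 3.64 on wild-type replicates 1 to 3. The groups did not overlap, and the difference was -0.33 ± 0.07 (SE; limma, adjusted p = 0.323). The 3' minus 5' signal difference of 3 control transcripts, a measure of how evenly transcripts are represented, was 1.92 to 2.19 on 4 arrays. It was 3.22 and 3.95 on mutant replicates 1 and 2 and 4.32 on wild-type replicate 1. Wild-type replicate 1 had the lowest value of all arrays for 14 of the 34 GSTs and the highest for 14 of the 33 UGTs. Wild-type replicate 2 was highest for 13 GSTs, and wild-type replicate 3 was lowest for 8 GSTs and 8 UGTs. The same counts were not made over all genes. The midgut, Malpighian tubule, fat body and muscle lists averaged 7.77 or more on every array. Adult lists averaged 7.22 to 7.42 (female) and 4.35 to 4.63 (male), and since these are different probe sets the lists cannot be ranked by level. Of the midgut list 10 of 12 genes were measured, of the tubule list 4 of 8 and of the fat body list 7 of 8.

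No GST or UGT gene passed the threshold over all probe sets in limma. That threshold was passed by 9 of 13966 probe sets, which is 0.0644% of them, and by 0.0646% of genes. At an unadjusted p under 0.05 there were 11 of the 68 members (16.2%), against 5.73% of all 10844 genes. Of the 11 members 6 were higher in the mutant, as were 3.14% of all genes, and 5 were lower, as were 2.59% of all genes. At p under 0.01 there were 7 members, where 1.77% of all genes had such a p. In 8 members the 4 mutant arrays did not overlap the 3 wild-type arrays, which is 11.8% of members against 6.26% of all genes. Of these 5 were higher (3.39% of all genes) and 3 lower (2.87% of all genes). The signs of the differences were mixed. A higher mean in the mutant was found for 29 members and a lower mean for 39, which is 57.4% lower, where over all genes 42% were higher and 58% lower. Their median difference was -0.03, beside -0.02 over all genes. With the 3' minus 5' measure as a covariate, 18 members had an unadjusted p under 0.05, where 15.5% of all genes did. In that fit *GstE5*, *GstE1* and *Ugt49C1* passed the adjusted threshold, as did 0.673% of all genes. In the plot of all members *GstE5*, *Ugt49C1* and *Ugt35E2* stand farthest from 0. *Ugt35C1* (-0.65 ± 0.25, SE) and *GstE1* (-0.65 ± 0.11) follow, then *GstE12* (0.61 ± 0.12).

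**Figure D1:**
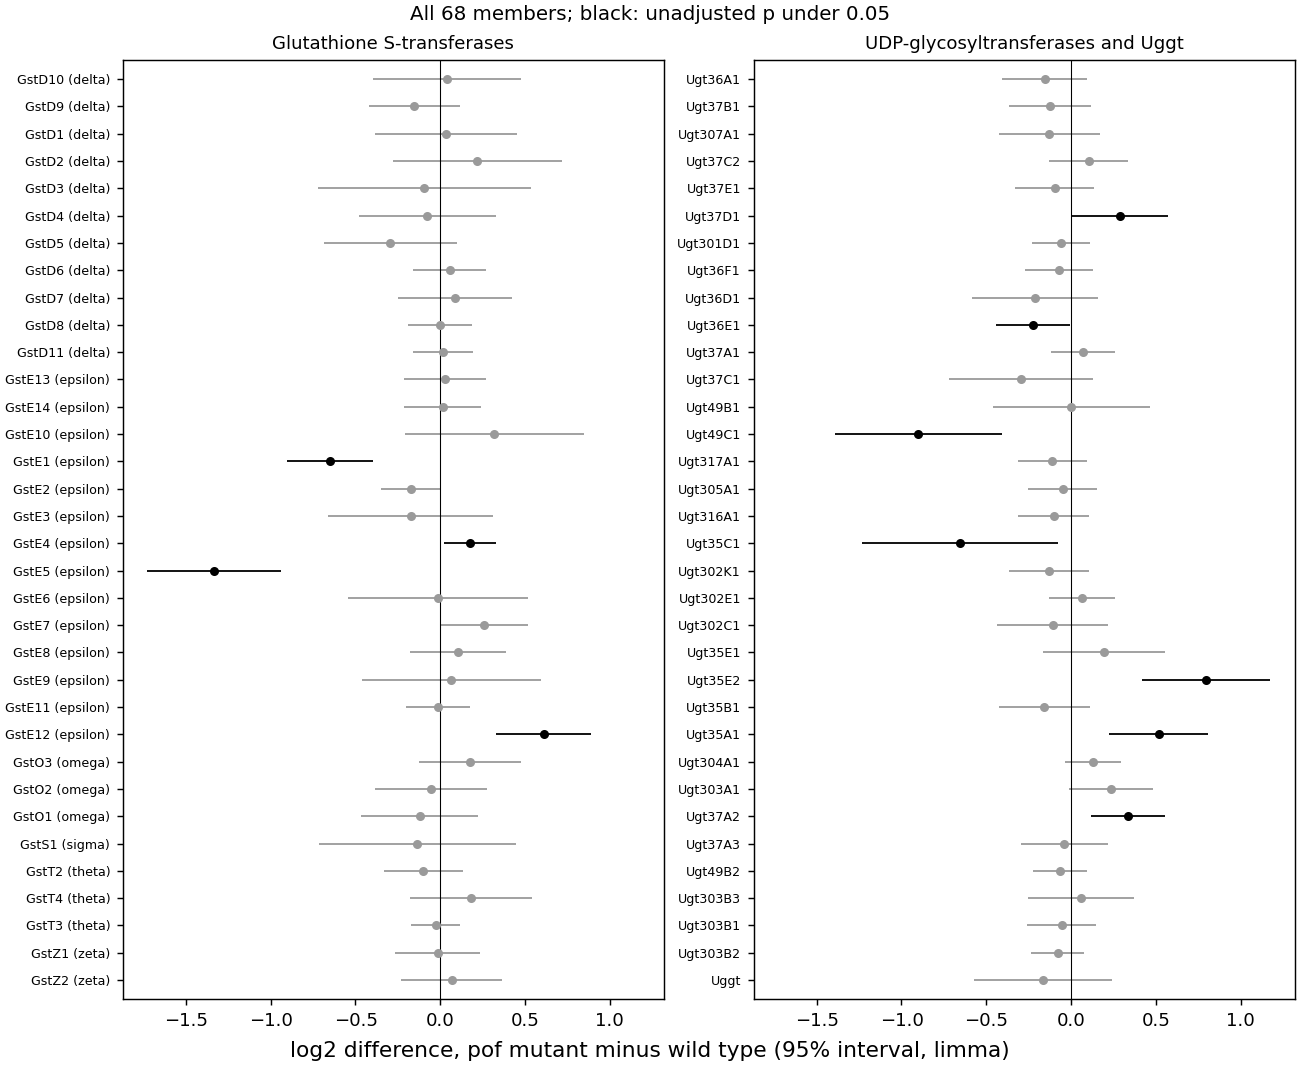
Log2 difference between pof mutant and wild type for each of the 68 members, GSTs by class on the left and UGTs with Uggt on the right, in their order on the chromosome arms within a class. Points are limma estimates and lines their 95% intervals; the 11 genes drawn in black have an unadjusted p under 0.05, and GstE5, at -1.33, lies farthest from 0.

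The epsilon class held the member with the smallest p. *GstE5* (probe set 147438_at, arm 2R) was at 6.14, 6.55, 6.16 and 6.26 on the mutant arrays and at 7.94, 7.64 and 7.26 on the wild-type arrays. Every mutant array lay below every wild-type array. Its wild-type level was 2.52-fold the mutant level, a difference of -1.33 ± 0.17 (SE; 95% interval -1.73 to -0.94; limma, adjusted p = 0.0529, unadjusted p = 6.06e-05). With the 3' minus 5' measure as a covariate the difference was -1.36, and it passed the threshold (limma, adjusted p = 0.00279).

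*GstE1* (152598_at), which lies in the same tandem cluster, showed the same direction. It was at 7.35, 7.50, 7.22 and 7.21 in the mutant and 7.81, 8.17 and 7.93 in wild type, again without overlap. The difference was -0.65 ± 0.11 (SE; limma, adjusted p = 0.168, unadjusted p = 0.000379), a wild-type level 1.57-fold that of the mutant, and with the covariate the adjusted p was 0.0482.

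*GstE4* (147437_at), the immediate neighbour of *GstE5*, had a small difference of the opposite sign. Its values were 7.59, 7.55, 7.62 and 7.49 in the mutant and 7.32, 7.37 and 7.47 in wild type, a separation of hundredths at the nearest arrays. The difference was 0.18 ± 0.07 (SE; limma, adjusted p = 0.824, unadjusted p = 0.028).

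The rest of the cluster, 10 genes in all on 2R, gave no further unadjusted p under 0.05 without the covariate. With it *GstE10* (0.35 ± 0.07, SE; limma, adjusted p = 0.0995), *GstE2* (limma, adjusted p = 0.277) and *GstE7* (limma, adjusted p = 0.315) had one, where 15.5% of all genes did. *GstE2* (-0.17 ± 0.08, SE) and *GstE3* (-0.17 ± 0.21) had lower means. *GstE7* (0.26 ± 0.11), *GstE10* (0.32 ± 0.23), *GstE8* (0.11 ± 0.12) and *GstE9* (0.06 ± 0.23) had higher ones, and *GstE6* was at -0.02 ± 0.23. Over the cluster 5 genes had a higher and 5 a lower mean, and 4 to 7 had a higher mean when any 1 array was left out. Wild-type replicate 1 was the lowest array for *GstE10* (6.56, against 7.05 to 7.72 elsewhere) and *GstE9* (7.71, against 7.97 to 8.62). Its controls were also the least even. With the 3' minus 5' measure as covariate the SE of the *GstE9* difference was 0.08, in place of 0.23, and the difference was 0.10. Without that array the difference was 0.05 for *GstE10* and -0.21 for *GstE9*.

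*GstE12* (151983_at), an epsilon gene that lies apart from the cluster on 2R, had the largest positive difference among GSTs. It was at 9.51, 9.12, 9.42 and 9.24 in the mutant and 8.61, 8.91 and 8.62 in wild type. All mutant arrays lay above all wild-type arrays, 1.53-fold on average, with a difference of 0.61 ± 0.12 (SE; limma, adjusted p = 0.208, unadjusted p = 0.00106). The other epsilon genes outside the cluster were close to 0. They were *GstE11* (-0.01 ± 0.08, SE), *GstE13* (0.03 ± 0.10) and *GstE14* (0.01 ± 0.10), the last of which acts in ecdysone synthesis in the prothoracic gland.

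**Figure D2:**
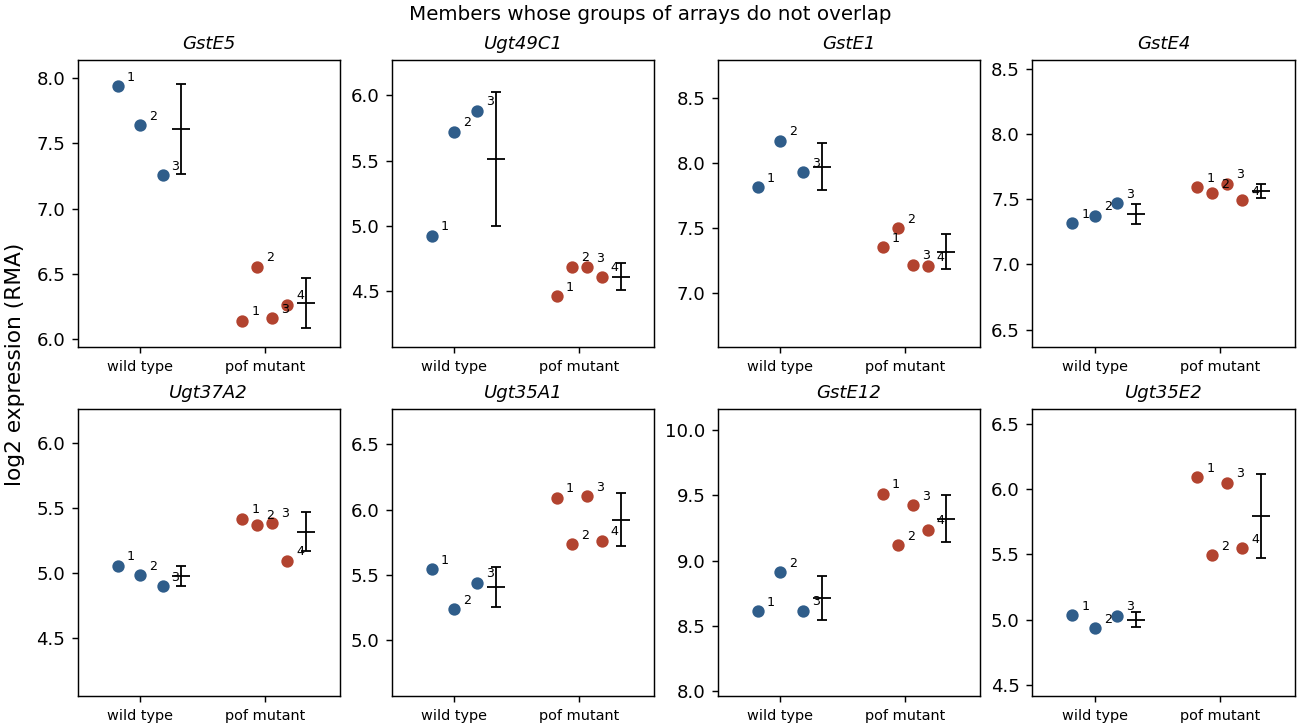
Log2 expression (RMA) on each array for the 8 members whose mutant and wild-type arrays do not overlap, with replicate numbers beside the points and the mean ± SD of each group as black bars (4 pof mutant arrays, 3 wild-type arrays). All panels span the same range of log2 units around their own centre; GstE5, Ugt49C1 and GstE1 are lower in the mutant and the other 5 higher.

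The delta class gave no gene with an unadjusted p under 0.05. Its 11 measured genes form 1 tandem cluster on 3R, with 6 means above and 5 below those of wild type and a class median of 0.02. *GstD1* (143184_at), whose product can break down DDT, was at 11.87, 12.08, 11.80 and 12.25 in the mutant and 11.60, 12.34 and 11.95 in wild type. The wild-type arrays spanned the mutant ones, and the difference was 0.03 ± 0.18 (SE; 95% interval -0.39 to 0.45; limma, adjusted p = 0.987). *GstD5* had the smallest p of the class at -0.29 ± 0.17 (SE; limma, adjusted p = 0.962), and *GstD2* the largest positive difference at 0.22 ± 0.22.

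Delta genes varied between pools of one group more than most genes. The median SD within groups was 0.26 in this class, 0.19 over all GSTs and 0.15 over UGTs, against 0.13 over all genes. *GstD3* had the largest of any member, with 6.40, 5.94, 6.27 and 6.84 in the mutant and 5.97, 6.99 and 6.41 in wild type, and an SD within groups of 0.43. The interval of its difference, -0.72 to 0.53, includes a decrease of the size seen in *GstE1*. The interval of *GstD8* (-0.19 to 0.19) was narrow. Relative to each gene's mean, the class median on the mutant arrays was negative for replicates 1 (-0.11) and 3 (-0.13) and positive for replicates 2 (0.15) and 4 (0.12).

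**Figure D3:**
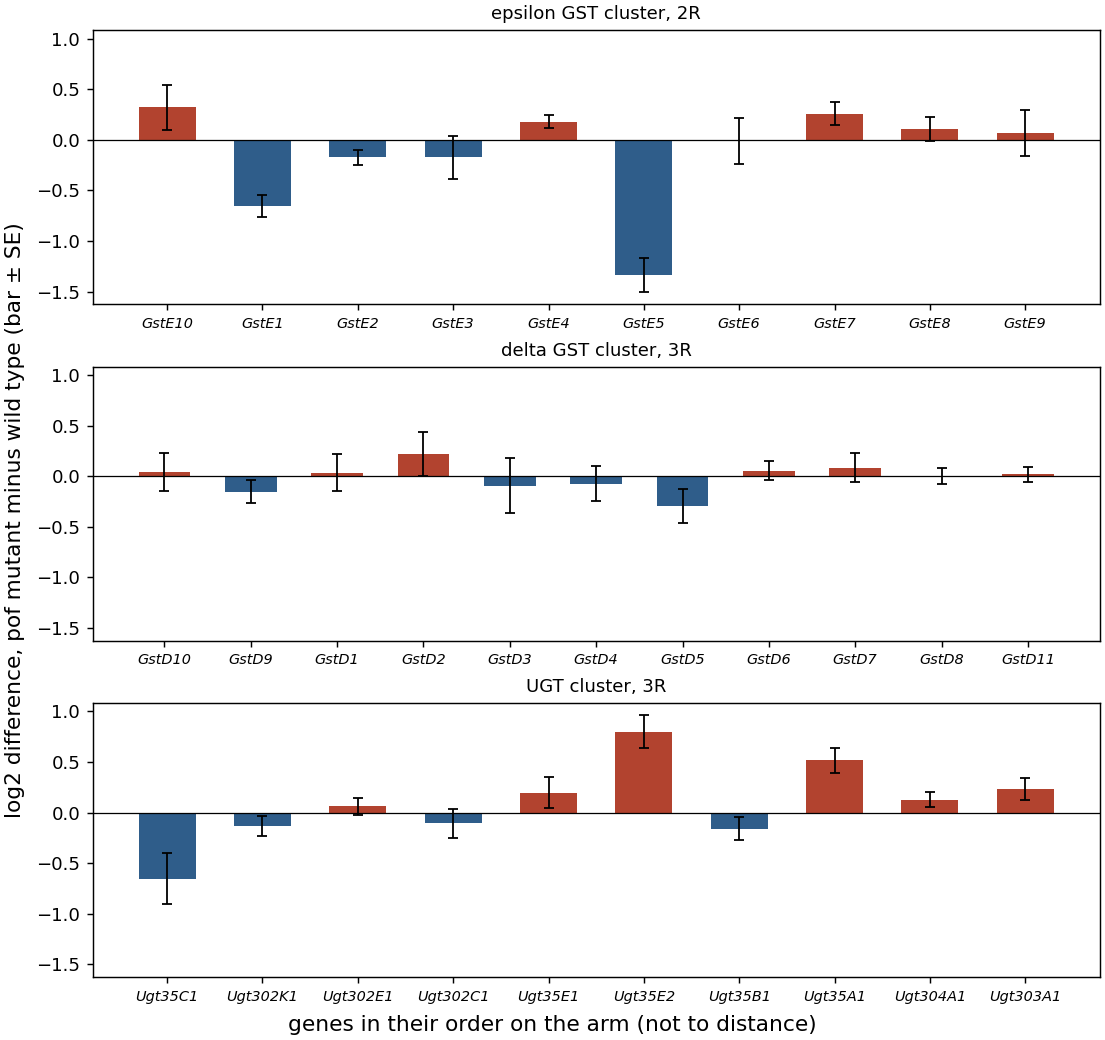
Log2 difference (bars, ± SE, limma) of the genes in the 3 largest clusters in their order on the chromosome arm, not drawn to distance; red bars are higher and blue bars lower in the pof mutant. In the epsilon cluster GstE5 (-1.33) and GstE1 (-0.65) stand below their neighbours, the delta cluster stays between -0.29 and 0.22, and in the UGT cluster Ugt35C1 (-0.65) and Ugt35E2 (0.80) differ in sign.

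The remaining GST classes gave no gene with an unadjusted p under 0.05. Omega enzymes reduce dehydroascorbate and related substrates: *GstO3* was at 0.18 ± 0.13 (SE) and *GstO2* at -0.05 ± 0.14. Without wild-type replicate 1 these differences were 0.01 and -0.22. The other probe sets of *GstO2* had differences of -0.13 ± 0.06 and -0.27 ± 0.21. The sigma gene *GstS1*, an enzyme abundant in muscle that acts on products of lipid peroxidation, was at 8.69, 8.63, 8.97 and 9.03 in the mutant and 8.31, 9.41 and 9.18 in wild type. Wild-type replicate 1 was the lowest and wild-type replicate 2 the highest of all arrays, and the difference of -0.14 ± 0.25 was smaller than its SE. The muscle markers, of which 4 of 6 were measured, averaged 10.04, 10.7 and 11.3 on wild-type replicates 1 to 3 and 10.6 to 11.1 in the mutant, so their highest array was not that of *GstS1*. Their lowest was, and its control transcripts were also the least even. The part of muscle in the *GstS1* values was not tested. The theta genes *GstT4* (0.18 ± 0.15), *GstT3* (-0.03 ± 0.06) and *GstT2* (-0.10 ± 0.10), and the zeta genes *GstZ1* (-0.01 ± 0.11) and *GstZ2* (0.07 ± 0.13), had limma adjusted p of at least 0.962. Without wild-type replicate 1 *GstT4* was at -0.0050. Zeta enzymes isomerise maleylacetoacetate in tyrosine breakdown.

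UGT genes gave 7 of the 11 members with an unadjusted p under 0.05 (limma), 4 higher and 3 lower, out of 33 measured. That is 21.2% of them, where 5.73% of all genes had such a p, 3.14% higher and 2.59% lower. A lower mean was found for 21 of the 33 (63.6%), where 58% of all genes had one. The median over the UGTs was -0.06, and it was -0.01 without wild-type replicate 1. Their probe sets were dimmer than those of the GSTs: 21 of 33 had a mean log2 level under 6, where RMA compresses differences, against 7 of 34 GSTs.

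The largest UGT cluster, on 3R, held 10 measured genes, and differences of both signs lay within it. *Ugt35E2* (142272_at) was at 6.09, 5.49, 6.05 and 5.54 in the mutant and 5.03, 4.93 and 5.03 in wild type. Every mutant array was above the wild-type arrays, which differed little among themselves. The mutant level was 1.74-fold the wild-type level, a difference of 0.80 ± 0.16 (SE; limma, adjusted p = 0.241, unadjusted p = 0.00134).

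*Ugt35A1* (153987_at), which lies next but one in the cluster, was also above wild type on every mutant array. It was at 6.09, 5.73, 6.10 and 5.76 in the mutant and 5.54, 5.24 and 5.44 in wild type, with a difference of 0.52 ± 0.13 (SE; limma, adjusted p = 0.374). In both genes mutant replicates 1 and 3 were higher than replicates 2 and 4, and *GstE12* had the same 2 arrays highest. The mean level of 10 midgut markers was likewise higher on mutant replicates 1 (10.4) and 3 (10.5) than on 2 (9.89) and 4 (10.1). In wild type the midgut mean ran from 9.78 (replicate 1) to 10.2 (replicate 2), so wild-type replicate 2 lay above mutant replicates 2 and 4. On wild-type replicate 2, however, *Ugt35E2* (4.93) and *Ugt35A1* (5.24) had their lowest values of all arrays. *GstE12* (8.91) had its highest wild-type value there. Of the 10 midgut markers 6 had a higher and 4 a lower mean in the mutant. An unadjusted p under 0.05 (limma) was found for 5 of them, 3 higher and 2 lower, against 5.73% of all genes. In 5 the groups did not overlap, against 6.26% of all genes. The fat body list of 7 genes averaged 8.768 to 8.881 in the mutant and 8.707 to 8.765 in wild type, without overlap. Of its genes 4 were higher and 3 lower, and 4 had an unadjusted p under 0.05 (limma). In 3 the groups did not overlap. No gene of either list passed the adjusted threshold, and both lists were chosen with earlier results of these data known. The part of these tissues in the UGT and GST differences was not tested.

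*Ugt35B1*, between *Ugt35E2* and *Ugt35A1*, had a lower mean, at -0.16 ± 0.12 (SE), and its other probe set gave 0.04 ± 0.12. *Ugt35C1* (149663_at), long named Ugt86Dd and known in flies for its part in nicotine resistance, lies at one end of the cluster. It was at 5.87, 5.42, 5.93 and 5.74 in the mutant and 5.86, 6.98 and 6.34 in wild type. Wild-type replicate 1 lay inside the mutant range and the other wild-type arrays above it. The difference was -0.65 ± 0.25 (SE; limma, adjusted p = 0.842, unadjusted p = 0.0315), but it depended on the wild-type arrays. It was -0.92 when replicate 1 of that group was left out and -0.36 when replicate 2 was left out. The remaining genes of the cluster were *Ugt303A1* (0.24 ± 0.11), *Ugt35E1* (0.20 ± 0.16), *Ugt304A1* (0.13 ± 0.07), *Ugt302E1* (0.06 ± 0.08), *Ugt302C1* (-0.11 ± 0.14) and *Ugt302K1* (-0.13 ± 0.10), with limma adjusted p of at least 0.952.

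*Ugt49C1* (147609_at, 2R) was the UGT with the largest difference. It was at 4.46, 4.69, 4.68 and 4.61 in the mutant and 4.92, 5.72 and 5.88 in wild type. The mutant arrays were close together and below all wild-type arrays, of which replicate 1 lay nearest to them. The wild-type level was 1.87-fold that of the mutant, a difference of -0.90 ± 0.21 (SE; limma, adjusted p = 0.345, unadjusted p = 0.00309). With the covariate the adjusted p was 0.0462, and without wild-type replicate 1 the difference was -1.19 (limma, adjusted p = 0.00697).

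*Ugt49B1*, its neighbour, was at 7.13, 7.28, 7.27 and 7.36 in the mutant and 6.70, 7.58 and 7.48 in wild type. Wild-type replicate 1 lay below and the other wild-type arrays above all mutant arrays. The difference was 0.0017 ± 0.20 (SE; 95% interval -0.46 to 0.46), and without wild-type replicate 1 it was -0.27 (limma, unadjusted p = 0.00998).

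*Ugt37A2* (149798_at, 3R) was at 5.42, 5.37, 5.39 and 5.09 in the mutant and 5.06, 4.98 and 4.90 in wild type, without overlap. The difference was 0.34 ± 0.09 (SE; limma, adjusted p = 0.513, unadjusted p = 0.00734). Its neighbour *Ugt37A3* was at -0.04 ± 0.11. The 3 genes from *Ugt37C2* to *Ugt37D1* on 2L had differences of 0.10 ± 0.10 (*Ugt37C2*), -0.10 ± 0.10 (*Ugt37E1*) and 0.29 ± 0.12 (*Ugt37D1*, limma, adjusted p = 0.915, unadjusted p = 0.0482). The 3 genes from *Ugt36F1* to *Ugt36E1* on 2L all had lower means. They were *Ugt36E1* (-0.23 ± 0.09, unadjusted p = 0.0442, limma adjusted p = 0.896), *Ugt36D1* (-0.21 ± 0.16) and *Ugt36F1* (-0.07 ± 0.09). Of 10 UGT genes outside any cluster 9 had a lower mean, where 58% of all genes did, with a median of -0.11 and no unadjusted p under 0.05. Without wild-type replicate 1 there were 7 of 10 and the median was -0.03. *Uggt* was at -0.17 ± 0.18 (SE).

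The members with an unadjusted p under 0.05 lay on 3 arms. They were 5 of 20 members on 2R, the arm that also carries *Pof*, 4 of 29 on 3R and 2 of 11 on 2L, with none of 6 on 3L or of 2 on X. Over all genes the shares were 7.54% on 2R, 5.07% on 3R, 6.88% on 2L, 4.94% on 3L and 4.14% on X. No member lies on chromosome 4.

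Genes that supply glutathione and UDP-sugars gave a few unadjusted differences, all higher in the mutant, and none passed the threshold in limma. Of 4 measured genes on the list for glutathione synthesis and turnover, *Ggt-1*, a gamma-glutamyl transferase that starts glutathione breakdown, was at 0.29 ± 0.09 (SE; limma, adjusted p = 0.599). *Gclm*, the modifier subunit of the enzyme that limits glutathione synthesis, was at 0.30 ± 0.11 (limma, adjusted p = 0.842). The catalytic subunit *Gclc* was at -0.02 ± 0.15. *isoQC*, at 0.0020 ± 0.07, was on the list and in its counts but is not an enzyme of glutathione synthesis or breakdown. The first 2 had an unadjusted p under 0.05 (limma), where 5.73% of all genes did. Wild-type replicate 1 was the lowest array for 3 of the 4 genes, and without it 1 of the 4 had such a p. The count was also 1 without wild-type replicate 2, mutant replicate 1 or mutant replicate 3.

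Of 7 measured genes of sugar nucleotide supply 5 had higher means, with a median of 0.22. The median was 0.08 without wild-type replicate 1, the lowest array for 5 of the 7, and 0.14 without mutant replicate 3. *Galt*, which makes UDP-galactose from UDP-glucose and galactose phosphate, averaged 8.49 ± 0.11 (SD, n = 4) on mutant arrays and 7.91 ± 0.21 (SD, n = 3) on wild-type arrays. Its difference was 0.58 ± 0.11 (SE; limma, adjusted p = 0.18; with the covariate 0.0149), and the groups did not overlap. *sgl*, the dehydrogenase that makes UDP-glucuronate, was at 0.22 ± 0.13, *Pgm1* at 0.29 ± 0.19 and *Hex-A* at 0.26 ± 0.13, with unadjusted p of at least 0.0771. *UGP*, which makes UDP-glucose itself, was at -0.05 ± 0.09.

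Regulators and partners of these enzymes gave no unadjusted p under 0.05 in the fit without covariates. The 9 measured regulators had a median of -0.02, which was 0.03 without wild-type replicate 1 and -0.08 with probe sets averaged. With the 3' minus 5' measure as a covariate, *maf-S* alone of the 9 had such a p (limma, unadjusted p = 0.0185), where 15.5% of all genes did. With the replicate block its difference was 0.61 (limma, unadjusted p = 0.00821), where 5.53% of all genes had a p under 0.05. The Nrf2 factor *cnc*, which drives detoxification genes, was at -0.14 ± 0.09 (SE), its inhibitor *Keap1* at -0.16 ± 0.08, its partner *maf-S* at 0.44 ± 0.21, and the xenobiotic receptor *Hr96* at 0.09 ± 0.07. Of the 9 regulators 5 had a mean log2 level under 6, where RMA compresses differences. Among those 5 were *Hr96* (3.33) and *Keap1* (4.03), so a change in them could be missed. Of the 11 redox enzymes 5 had a higher and 6 a lower mean, and 2 a higher mean without wild-type replicate 1. With the covariate 2 of the 11 had an unadjusted p under 0.05 (limma), where 15.5% of all genes did. Among the redox enzymes *Trxr2* was at -0.13 ± 0.07, *Trxr1* at 0.09 ± 0.07, *Grx1* at -0.23 ± 0.23 and *Grx1t* at -0.06 ± 0.06. The mean log2 level of *Grx1t* was also under 6, at 4.50.

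The listed exporters had higher means in 5 of 6 genes, with a median of 0.19. Wild-type replicate 1 was the lowest array for 5 of the 6. Without it 3 of 6 were higher and the median was 0.02, and without mutant replicate 3 the median was 0.05. *Mdr50* was at 0.31 ± 0.19 (SE), *Mdr65* at 0.33 ± 0.25, *Mrp5* at 0.28 ± 0.31 and *Mrp4* at -0.07 ± 0.08, all with limma unadjusted p of at least 0.139. With the 3' minus 5' measure as a covariate, *Mdr65* and *Mdr50* had an unadjusted p under 0.05 (limma), where 15.5% of all genes did. The mean log2 level of *Mrp4* was low, at 3.86. Of 7 genes with a GST-like fold or of the microsomal GST type, one of which is *GstZ1*, 4 had higher means. They included the microsomal GST *Mgstl* (0.31 ± 0.14), *Clic* (0.55 ± 0.27), *Gdap1* (0.09 ± 0.10) and the translation elongation subunit *eEF1gamma* (0.21 ± 0.31). None of the 7 had an unadjusted p under 0.05 (limma) without the covariate, and 3 did with it. Without wild-type replicate 1 only 2 of the 7 had higher means: *Clic* was at 0.21 and *Mgstl* at 0.19, while *Gdap1* (-0.02) and *eEF1gamma* (-0.20) were below 0.

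**Figure D4:**
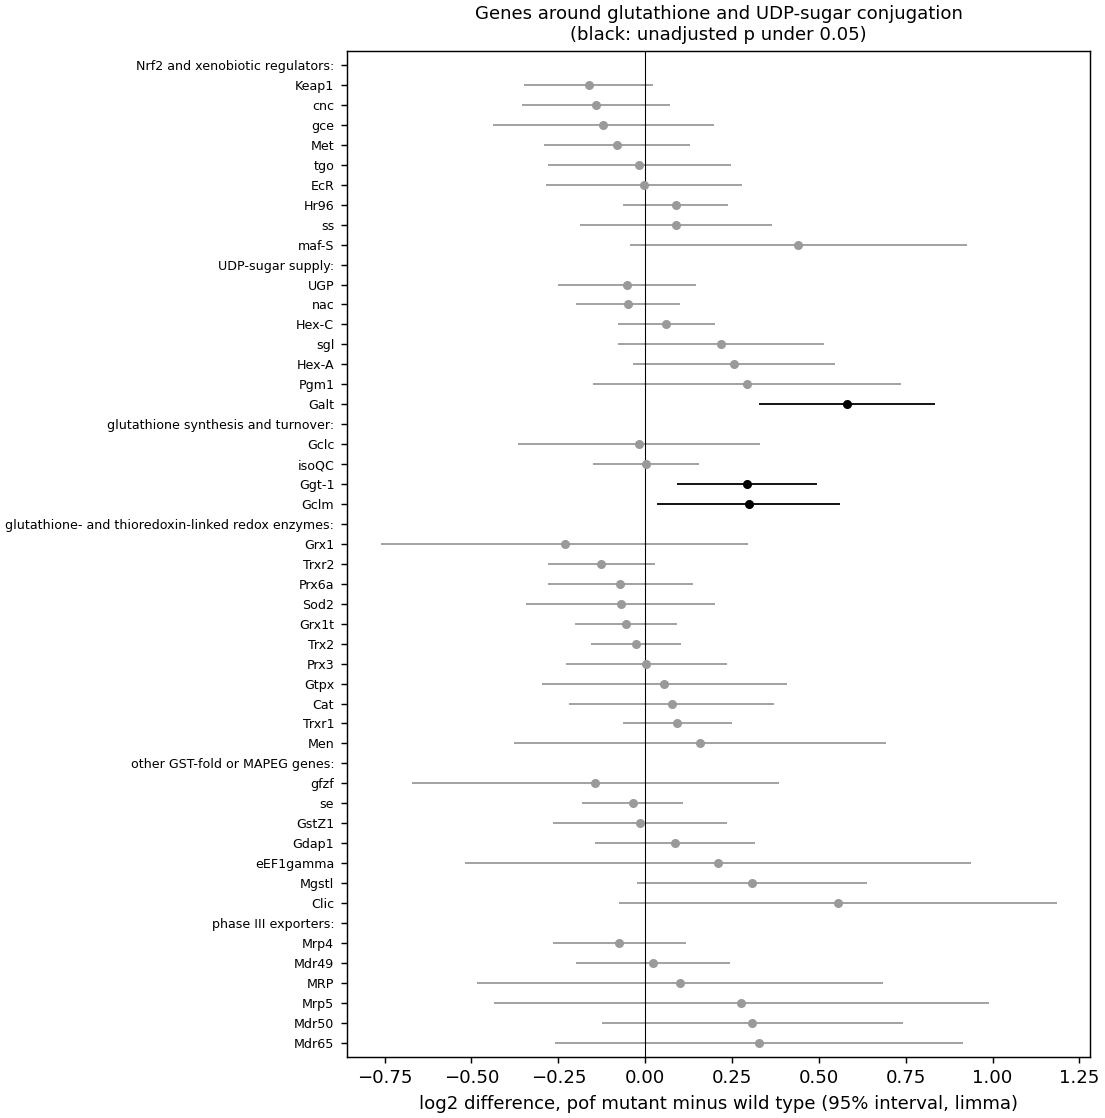
Log2 difference between pof mutant and wild type (limma estimate and 95% interval) for the genes listed around glutathione and UDP-sugar conjugation, with regulators, suppliers and exporters, grouped by list. Galt (0.58), Gclm (0.30) and Ggt-1 (0.29), in black, have an unadjusted p under 0.05, and no gene in the plot passed the adjusted threshold.

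Cytochromes P450, which act before GSTs and UGTs, included larger differences. The 10 P450 genes set beside the members here were chosen with their values in these arrays known, so their counts are not independent evidence. Of them 3 passed limma's threshold, with *Cyp12d1-d* at -2.84 ± 0.17 (SE; limma, adjusted p = 0.00412), *Cyp6a17* at 2.39 ± 0.23 and *Cyp4d1* at 1.61 ± 0.16, and *Cyp6a23* was at -2.02 ± 0.24 (adjusted p = 0.0529). Of the 68 GST and UGT members only *GstE5* had a difference beyond 1 on the log2 scale in either direction.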

How the data were processed

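The samples are 4 pof mutant and 3 wild-type pools of 400 larvae, with 1 array each; groups and replicate numbers come from the sample titles. Nothing beyond the term biological replicate says how pools were raised, so p-values measure the spread between these pools. The deposited values are log2 expression per probe set, which the authors computed by RMA (named in the submitters' processing notes, without a version). RMA quantile normalizes arrays and compresses low signals. The values ran from 2.62 to 14.5.

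Probe sets were named through the platform's annotation, with symbols, arms and gene order from RefSeq (Release 6): 12394 of 12443 probe sets with 1 gene matched by gene ID. No coordinates or sequences are printed. A cluster is a run of members of 1 class with at most 2 other genes between neighbours.

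The 13966 probe sets other than 44 controls were fitted with limma 3.58.1 in R 4.3.3 (lmFit, eBayes, no covariate), adjusted by Benjamini-Hochberg. The steps were tested on simulated data. Figures used matplotlib 3.10.9. Alternatives were a replicate block, the 3' minus 5' difference averaged over control transcripts (GAPDH, actin, eIF-4a) as covariate, a further quantile normalization, trend and robust eBayes, array weights, averaged probe sets, a level of at least 6, a p limit of 0.01, and leaving out each array.

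Members, lists, alternatives and the naming rule were chosen with earlier results of these data known. Named are members with an unadjusted p under 0.05 or without overlap, the highest-level and smallest-p member of each class, cluster neighbours of the former, and up to 4 genes per pathway list by p. *GstD2*, *GstD3*, *GstD8*, *GstE11*, *GstE13*, *GstE14*, *GstT2* and *UGP* were added after their values were seen.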

Additional observations from a re-analysis of the deposited data

Results flagged for a closer look

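Groups of 3 arrays are not tested for a distant value, so this concerns the mutant arrays alone. Dixon's 95% criterion singled out an array in 3 of 41 named members, and by chance about 1 in 20 would be. *Ugt302E1* was 4.44 on mutant replicate 2, where the remaining mutant arrays had a median of 4.20. *Ugt37A2* was 5.09 on mutant replicate 4 (median of the rest 5.39), still above the wild-type arrays. *GstT3* was 7.23 on mutant replicate 3 (median of the rest 7.28).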

How the results depend on the processing

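Over the 14 refits (13 for those with a level under 6), 7 members kept their direction and an unadjusted p under 0.05 throughout. They were *GstE5*, *GstE1*, *GstE12*, *Ugt49C1*, *Ugt35E2*, *Ugt35A1* and *Ugt37A2*. The refits reuse the 7 arrays in which these members had a small p, so they are not independent evidence. The share of all genes that stayed under this limit in every refit was not counted. *GstE5* passed the adjusted threshold in 5 of these refits, *Ugt49C1* in 3 and *GstE1* in 2; *GstE5* ranged from -1.51 to -1.17. *GstE4*, *Ugt35C1*, *Ugt36E1* and *Ugt37D1* lost the unadjusted p under 0.05 in some; the cause was not tested. The count of 11 members became 21 with array weights (8 higher, 13 lower), where 11.1% of all genes had such a p. It was 18 with the covariate (11 higher, 7 lower), where 15.5% of all genes did. It was 5 of 39 members at a level of at least 6 (7.19% of such genes), and 7 at p under 0.01. Leaving out 1 array gave 8 to 15 members. The 15 came without wild-type replicate 1, where 7.52% of all genes had such a p. The share of all genes was smallest without pof mutant replicate 1 (3.52%) and largest without wild-type replicate 3 (8%). The 9 probe sets past the threshold became 76 with array weights, 86 with the covariate, 16 with probe sets averaged and 2 with the replicate block, and 0 (without pof mutant replicate 1) to 34 (without wild-type replicate 1) with 1 array left out. *Ugt49B1* changed sign to -0.26 with array weights, and leaving out 1 array gave -0.27 to 0.16. Medians of the larger classes, the epsilon cluster, the UGTs outside clusters and the pathway lists were refitted as an addition after the data had been seen. The GST median ran from -0.05 to 0.08 and the delta median from -0.05 to 0.07 with 1 array left out, so neither has a settled sign, and the epsilon median ran from -0.09 to 0.14. The members' median turned to 0.03 without wild-type replicate 2. Deviations of same-numbered arrays correlated at 0.25, -0.57 and 0.56 for replicates 1 to 3. Differently numbered arrays were not correlated, so these values cannot decide whether replicate numbers pair the arrays. The replicate block, which cannot use pof mutant replicate 4, gave 9 members with an unadjusted p under 0.05 (5.53% of all genes). Low probe set signal limits the dimmer UGTs.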
